A study of Rattus norvegicus with 6 samples.

Results

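Gfap-high astrocytes are the astrocytes of rat hippocampus that carried the most messenger RNA of Gfap, the intermediate filament protein whose level is the customary mark of a reactive or a fibrous astrocyte. They were chosen by measured values, on shares of unique molecular identifiers (UMIs), which count captured transcripts. A barcode needed at least 1500 UMIs and at most 20% of them from mitochondrial genes. Gja1, Aqp4 and Slc1a3 together had to reach 5 per 1000 UMIs, C1qa, C1qb and C1qc together could not exceed 3 per 1000, and Mag, Mog, Ermn, Cldn11 and Mal together had to stay below 1 per 1000. Of the 9378 astrocytes that met these limits, 2189 had at least 2 Gfap UMIs per 1000 and are called Gfap-high, and the other 7189 are called Gfap-low. The Gfap-high cells were 2189 of 58078 barcodes in all and of 45464 that passed the limits on depth and mitochondrial UMIs.

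The study sampled the hippocampi of 3 male rats given 20 Gy to the whole brain 2 months before dissection and of 3 male control rats, with Chromium 3′ v3 libraries of dissociated cells cleared of red and dead cells. The labels name no strain, age or sort. The suffix of a barcode gives its library, numbered 1 to 6, but 0 of the 6 libraries could be tied to a labelled rat. Irradiated and control rats were therefore not compared, and every comparison here sets Gfap-high against Gfap-low astrocytes of the same library. Libraries are given by number, belong to no known group and are not replicates of a condition, so no p-value was computed.

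Astrocytes clear glutamate and potassium, supply neurons with lactate and lipids, and cover vessels and synapses with fine processes. In reactive astrocytes cytokine signals that act through Stat3 raise Gfap, and bone morphogenetic protein (BMP) signals favour Gfap-rich astrocytes through the Id proteins. Notch and Sonic hedgehog signals are also read by astrocytes, through targets such as Heyl for Notch and Gli1 for hedgehog. In the rodent hippocampus, Gfap is high in astrocytes along the fissure, in white matter and at the brain surface, and in the radial stem cells of the dentate gyrus.

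The promoters of Gfap, which defines the cells, and of Ptch1, the hedgehog receptor and itself a hedgehog target, are shown because genes of Notch and hedgehog signals are described below. Each is the 250 bases before the start annotated by RefSeq on the rat build GRCr8, 5′ to 3′ on the gene's strand. The Gfap window is chr10:88361662-88361911 on the minus strand, and its capitals mark the one match to TGGGAA, the core bound by the Notch partner CSL, here read from the other strand. The Ptch1 window is chr17:1555321-1555570 on the plus strand, and its capitals mark a match to GACCACCCA, the motif of the hedgehog factors Gli, again from the other strand at bases -172 to -164.
Gfap: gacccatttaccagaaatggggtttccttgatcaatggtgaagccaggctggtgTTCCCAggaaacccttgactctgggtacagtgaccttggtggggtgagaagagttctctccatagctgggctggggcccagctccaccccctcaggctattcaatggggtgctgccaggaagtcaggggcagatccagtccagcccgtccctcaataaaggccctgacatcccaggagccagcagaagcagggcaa
Ptch1: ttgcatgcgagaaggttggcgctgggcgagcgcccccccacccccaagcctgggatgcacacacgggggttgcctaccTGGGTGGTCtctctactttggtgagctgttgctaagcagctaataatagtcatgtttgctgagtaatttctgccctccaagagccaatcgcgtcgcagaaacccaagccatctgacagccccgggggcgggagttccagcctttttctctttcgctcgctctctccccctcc
Both motifs, and TTCNNNGAA for Stat factors, were searched on both strands. Of 33469 RefSeq windows, 22.1% held the CSL core, 7.67% the Stat motif and 0.338% the Gli motif. The Gfap window held 0 Stat motifs. Among the genes found higher in Gfap-high astrocytes below, 4 of 17 windows held the CSL core, and among those found lower 3 of 15 did. The Gli motif was in 1 of 17, that of Gal, and 0 of 15, and the Stat motif in 0 of both sets. A match is only a stretch of letters, and the windows were chosen after values had been seen.

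The members carried the markers of astrocytes that the rule did not use. Aldoc, the aldolase of the brain, had 4304, 4611 and 5933 CPM (UMIs of a gene per 1000000 UMIs of its summed class; lowest, median and highest of 6 libraries) in Gfap-high astrocytes, against 4795, 5156 and 7007 CPM in Gfap-low astrocytes. In 25912 barcodes led by C1q, which mark microglia, the same values were 208, 289 and 569 CPM. Gpr37l1, an astrocyte receptor, had a median of 1016 CPM in Gfap-high astrocytes, 1072 CPM in Gfap-low astrocytes and 46.3 CPM in C1q barcodes. Slc1a2, Aldh1l1, Mlc1, Ntsr2 and S100b also stood far above the C1q barcodes in both classes.

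With the libraries pooled, depth was close between the classes, but within each of the 6 libraries the Gfap-high median was the lower. In library 4 the medians were 6776 UMIs in Gfap-high and 7604 in Gfap-low astrocytes. Gfap-high astrocytes had a median of 7461 UMIs and Gfap-low astrocytes of 7752, and the median mitochondrial share was 12.2% in Gfap-high and 12.4% in Gfap-low cells. Library 3 was the shallowest, with a median of 3468 UMIs in Gfap-high astrocytes and 4556 in Gfap-low astrocytes. Summed UMIs per library ran from 456763 in library 1 to 5996925 in library 5 for Gfap-high astrocytes, and from 2886235 to 17866279 for Gfap-low astrocytes. A count of 0 in the Gfap-high sum of library 1 allows up to 6.57 CPM, and in library 5 up to 0.500 CPM. Intervals and floors cover counting error only. Of all barcodes, 825 shared their sequence with a barcode of another library, among them 30 Gfap-high and 92 Gfap-low astrocytes.

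Gfap-high cells made up 23.3% of astrocytes (95% exact binomial interval 22.5 to 24.2%), but the share differed by library. It was 14.8% in library 1, 17.7% in library 2 and 12.3% in library 3, and 24.6%, 29.4% and 26.8% in libraries 4, 5 and 6. The intervals of libraries 1 to 3 ended at 20.1% at the highest, and those of libraries 4 to 6 began at 23.1% at the lowest. With each cell thinned to 1500 UMIs the shares were 22.2%, 28.0%, 20.6%, 35.7%, 38.7% and 37.1% from library 1 to 6, so the order held at equal depth. Astrocytes as a whole were 7.65%, 11.9% and 11.9% of passing barcodes in libraries 1 to 3 and 36.2%, 27.2% and 31.3% in libraries 4 to 6. What else separates the libraries was not tested.

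**Figure D1:**
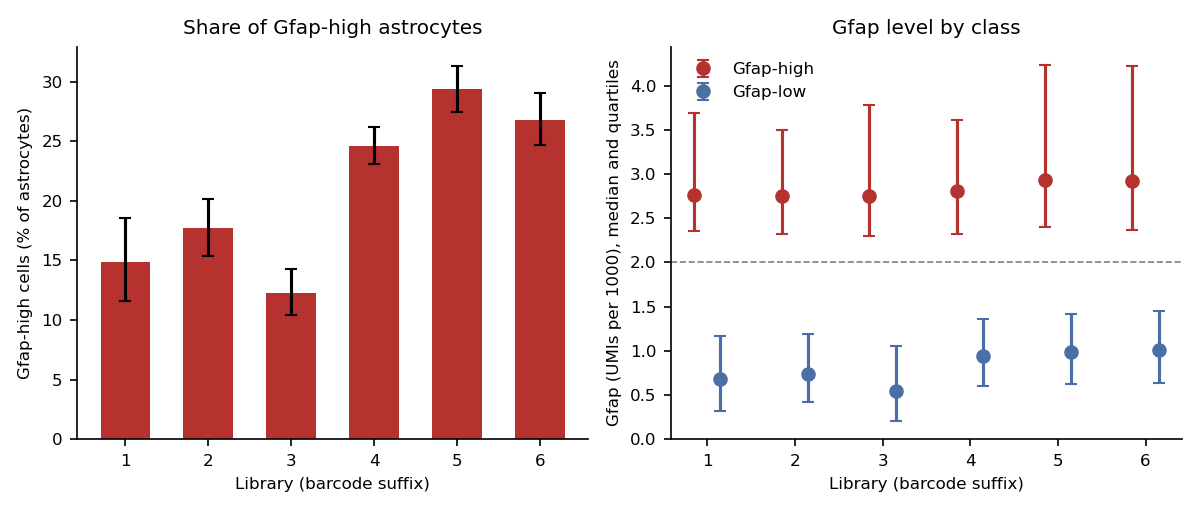
Left, Gfap-high cells as a percentage of astrocytes in each of the 6 libraries, with bars for the share and lines for the 95% exact binomial interval. Right, Gfap in UMIs per 1000 for Gfap-high (red) and Gfap-low (blue) astrocytes of each library, with points for medians, lines for quartiles and a dashed line at the limit of 2; the shares of libraries 4 to 6, from 24.6 to 29.4%, lie above those of libraries 1 to 3.

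Gfap itself chose the members, so its values are a description. Its median was 2.84 per 1000 UMIs in Gfap-high astrocytes and 0.881 in Gfap-low astrocytes, and the highest cell, in library 3, reached 34.6. Gfap had no gap at the limit. The band from 2 to 2.5 per 1000 held 760 Gfap-high cells and the band from 1.5 to 2 held 1258 Gfap-low cells. Only 517 Gfap-high cells reached 4 per 1000 and 173 reached 6. Of the other genes of the rule, Aqp4, the water channel of astrocyte endfeet, had a median of 2233 CPM in Gfap-high and 1689 CPM in Gfap-low astrocytes. Gja1, the connexin of astrocyte gap junctions, had 4230.0 CPM in Gfap-high and 4360 CPM in Gfap-low astrocytes.

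Beyond the rule, few genes met the limits set here for a difference between Gfap-high and Gfap-low astrocytes. A gene was called when the median over the 6 libraries of its log2 ratio, Gfap-high over Gfap-low with 10 CPM added to both, reached 1.5-fold and all 6 libraries lay on the same side of 0. Of 8668 genes at 10 CPM or more, 20 were higher (0.231%) and 22 were lower (0.254%). The median ratio of all 8668 genes was 0.00 on the log2 scale. A ratio above 0 in all 6 libraries, of any size, was found for 6.33% of genes and one below 0 for 6.46%. Levels of the classes did not overlap over the libraries for 17 of the 42 called genes (40.5%), against 0.773% of all genes. The 42 were chosen from these same values, so a larger share among them is partly built in and is no support for the calls. The level of 10 CPM was taken over both classes together. Of the 22 lower genes, 4 (Gli1, Inka2, Olig2 and Spon1) were under it in Gfap-high astrocytes and reached it only through Gfap-low astrocytes. Their values are therefore a description. Of the 20 higher genes, 0 reached it only through Gfap-high astrocytes.

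**Figure D2:**
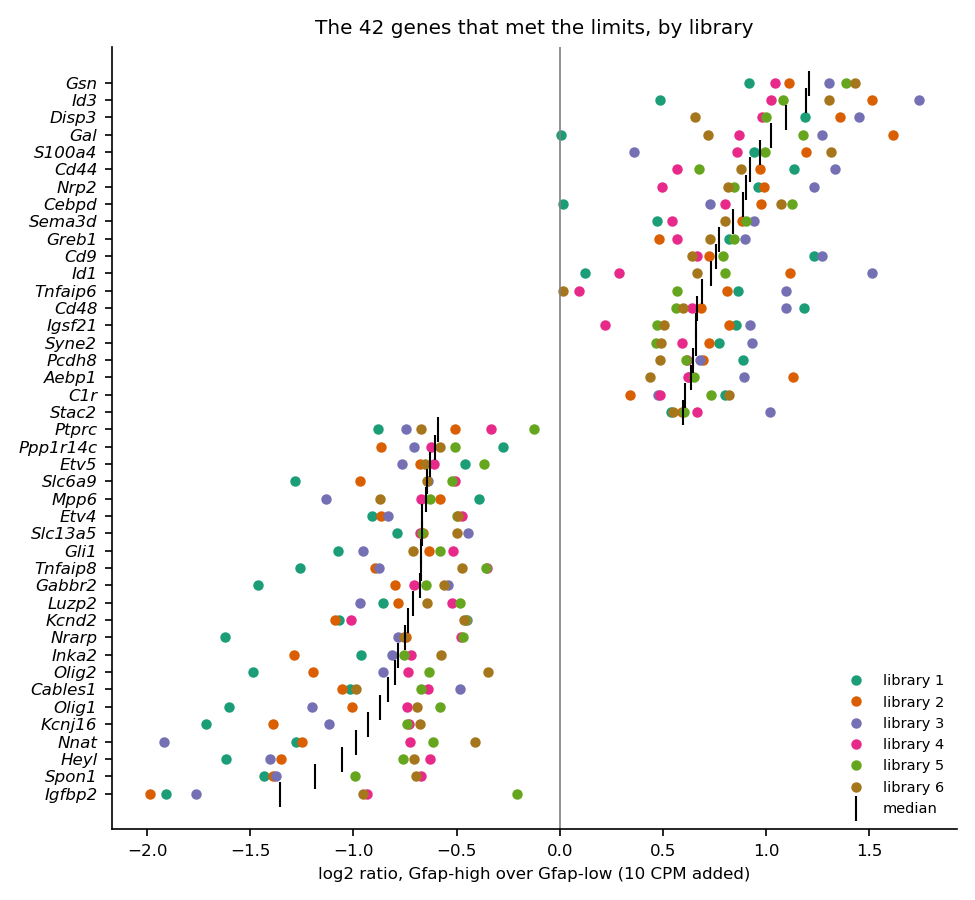
Log2 ratio of Gfap-high over Gfap-low astrocytes with 10 CPM added, in each of the 6 libraries (coloured points) and as the median (black tick), for the 20 genes called higher and the 22 called lower. The 3 points of called higher genes nearest 0 are Gal and Cebpd in library 1, both at 0.01, and Tnfaip6 in library 6, at 0.02. Gli1, Inka2, Olig2 and Spon1 reached 10 CPM only through Gfap-low astrocytes.

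Id3 and Id1, inhibitors of basic helix-loop-helix factors and targets of BMP signals, were both higher. Id3 had 107, 186 and 576 CPM (lowest, median and highest library) in Gfap-high astrocytes, against 69.1, 77.3 and 166 CPM in Gfap-low astrocytes. The ratio was above 0 in all 6 libraries although the ranges overlap, with a median log2 ratio of 1.19 (0.48 to 1.74). Id1 had 13.2, 19.6 and 104 CPM in Gfap-high and 5.55, 12.2 and 30.0 CPM in Gfap-low astrocytes, a median of 0.73 (0.12 to 1.52). With cells thinned to 1500 UMIs, Id3 was seen in 15.9% of Gfap-high cells (14.3 to 17.5%), 8.75% of Gfap-low cells (8.11 to 9.43%) and 2.11% of C1q barcodes. Unthinned the shares were 28.9%, 19.2% and 6.97%, at median depths of 7461, 7752 and 5198 UMIs.

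Gsn, or gelsolin, which cuts and caps actin filaments, had the highest median ratio. It had 35.0, 57.4 and 80.5 CPM in Gfap-high astrocytes and 13.9, 18.6 and 26.6 CPM in Gfap-low astrocytes, a median log2 ratio of 1.21 (0.92 to 1.43). The classes did not overlap. One cell gave 7.26% of its UMIs in Gfap-high astrocytes. Gsn was seen in 6.62% of thinned Gfap-high cells, 2.82% of Gfap-low cells and 5.18% of C1q barcodes, so the share in Gfap-low cells is not above that of microglial barcodes.

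Cd44, the hyaluronan receptor found on fibrous and reactive astrocytes, was higher in Gfap-high astrocytes of all 6 libraries. It had 30.9, 36.8 and 40.3 CPM in Gfap-high and 9.93, 14.2 and 18.9 CPM in Gfap-low astrocytes, with no overlap, and a median log2 ratio of 0.92 (0.57 to 1.33). Thinned, it was seen in 5.07% of Gfap-high cells, 2.41% of Gfap-low cells and 0.475% of C1q barcodes. Cd9, a tetraspanin of the cell surface, had 97.0, 125 and 302 CPM in Gfap-high and 50.2, 62.9 and 119 CPM in Gfap-low astrocytes, a median of 0.76 (0.64 to 1.27). Of 15 tested genes in a list of fibrous and surface astrocytes, Id3, Cd9 and Cd44 were higher and Nnat was lower. The median of that list was 0.00, with members from -0.99 to 1.19. Tnfaip6, a secreted protein that also binds hyaluronan, had a median of 0.69, but only 0.02 in library 6.

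Nrp2, the neuropilin that binds class 3 semaphorins, had 20.8, 26.3 and 49.4 CPM in Gfap-high astrocytes and 7.51, 10.6 and 15.3 CPM in Gfap-low astrocytes, with no overlap and a median log2 ratio of 0.90. Sema3d, a secreted class 3 semaphorin, had 16.5, 28.0 and 38.6 CPM in Gfap-high and 3.77, 14.8 and 17.9 CPM in Gfap-low astrocytes, a median of 0.84. Pcdh8, a protocadherin, had a median of 0.65, and Igsf21, an adhesion protein of synapses, of 0.66.

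Gal, the precursor of the neuropeptide galanin, had 8.76, 30.2 and 86.0 CPM in Gfap-high astrocytes and 6.89, 9.05 and 21.3 CPM in Gfap-low astrocytes. Its median log2 ratio was 1.02, with 0.01 in library 1. S100a4, a calcium-binding protein, had 23.8, 49.9 and 66.9 CPM in Gfap-high and 16.3, 18.2 and 25.6 CPM in Gfap-low astrocytes, a median of 0.97. Its thinned share was 6.62% of Gfap-high cells and 2.81% of Gfap-low cells, while C1q barcodes had 7.09%. The summed microglial markers went the other way, with a median of 1.17 per 1000 UMIs in Gfap-high and 1.34 in Gfap-low astrocytes, and 33.7 in C1q barcodes. The part of microglial RNA in the S100a4 value was not tested. Disp3, a membrane protein of the Dispatched family, had 16.6, 38.1 and 58.5 CPM in Gfap-high and 6.89, 11.1 and 16.7 CPM in Gfap-low astrocytes, a median of 1.09.

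Cebpd, a factor induced by inflammatory signals, had 28.5, 103 and 141 CPM in Gfap-high astrocytes and 28.1, 49.4 and 61.7 CPM in Gfap-low astrocytes. The median log2 ratio was 0.89, with 0.01 in library 1 and 0.73 or more in the others. Cebpd was the only call among 17 tested immediate early genes, whose list median was -0.13. Of 10 tested genes in a list of inflammation none was called, with a median of -0.10 and a highest member of 0.07. Stat3, the cytokine-activated factor, had 102, 156 and 186 CPM in Gfap-high and 56.8, 102 and 127 CPM in Gfap-low astrocytes. Its ratio was above 0 in all 6 libraries, from 0.46 to 0.75, but the median of 0.51 missed the limit. C1r, a protease that starts the complement cascade, was called higher at 0.61. Serping1, the inhibitor of C1r, had a larger median of 1.06 but was below 0 in library 3, at -0.03, and was not called.

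The rest of the genes called higher were Greb1 at 0.77, Cd48 at 0.66, Syne2 at 0.66, Aebp1 at 0.64 and Stac2 at 0.60. Syne2 encodes nesprin-2 of the nuclear envelope. Cd48 is a surface protein of immune cells and was seen in 51.5% of thinned C1q barcodes, against 10.5% of Gfap-high and 6.72% of Gfap-low cells. Yet the summed microglial markers (14 genes) were lower in Gfap-high astrocytes of all 6 libraries, at 0.600 to 1.93 per 1000 UMIs, than in Gfap-low astrocytes, at 0.705 to 2.25. C1q barcodes had 22.0 to 48.3. The part of microglial RNA in the Cd48 value was not tested.

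Heyl and Nrarp, which Notch induces, were lower in Gfap-high astrocytes. So was Gli1, which hedgehog induces, but it reached 10 CPM only through Gfap-low astrocytes, so its values are a description. A list of Notch, BMP and cytokine signals does not hold Heyl, Nrarp or Gli1. Of its 20 tested genes, Id1 and Id3 were higher, none was lower, and the median was -0.01. Heyl, a repressor induced by Notch, had 21.9, 44.0 and 69.3 CPM in Gfap-high astrocytes and 84.5, 97.4 and 128 CPM in Gfap-low astrocytes. The classes did not overlap and the median log2 ratio was -1.05 (-1.62 to -0.63). Nrarp, which limits Notch in turn, had 39.4, 74.0 and 95.2 CPM in Gfap-high and 105, 133 and 171 CPM in Gfap-low astrocytes, again with no overlap, a median of -0.75. Dner, an atypical Notch ligand, had a median of -0.57 and just missed the limit.

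Gli1, the hedgehog factor whose own level reads hedgehog activity, had 0, 5.13 and 18.3 CPM in Gfap-high astrocytes and 9.88, 13.7 and 44.9 CPM in Gfap-low astrocytes, a median of -0.67. Ptch1, whose promoter is shown above, had 29.3, 42.5 and 62.1 CPM in Gfap-high and 48.9, 68.6 and 82.2 CPM in Gfap-low astrocytes. Its ratio was below 0 in all 6 libraries, from -0.64 to -0.33, with a median of -0.56 that missed the limit. Etv4 and Etv5, factors induced by fibroblast growth factor signals, were lower at -0.67 and -0.63. Etv5 was seen in more C1q barcodes (11.6% thinned) than in Gfap-high (6.76%) or Gfap-low cells (10.3%).

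Olig1 and Olig2, factors of the oligodendrocyte line that some astrocytes also use, were both lower. Olig1 had 4.38, 15.4 and 20.9 CPM in Gfap-high and 29.3, 35.4 and 59.2 CPM in Gfap-low astrocytes, with no overlap, a median of -0.87. Olig2 had 0, 4.83 and 6.90 CPM in Gfap-high and 10.6, 18.0 and 18.1 CPM in Gfap-low astrocytes, a median of -0.80. It reached 10 CPM only through Gfap-low astrocytes, so its values are a description. Olig1 and Olig2 were the 2 tested genes of a list of precursor-cell markers. That list, summed over 9 genes, had a median of 0.0257 per 1000 UMIs in Gfap-high and 0.0597 in Gfap-low astrocytes, lower in all 6 libraries, and the part of precursor RNA was not tested. Markers of mature oligodendrocytes were higher in Gfap-high cells of all 6 libraries, at a median of 0.414 per 1000 UMIs against 0.337 in Gfap-low cells, and their part in other results was not tested.

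Of 16 tested genes that handle water, potassium and gap junctions Kcnj16 was lower and none was higher, and of 16 that handle glutamate, GABA and glycine Slc6a9 was lower and none was higher. Kcnj16, a subunit that joins Kcnj10 in potassium channels, had 13.1, 45.9 and 59.7 CPM in Gfap-high astrocytes and 59.4, 99.5 and 114 CPM in Gfap-low astrocytes, a median log2 ratio of -0.93 (-1.71 to -0.68). Kcnj10 itself had a median of -0.10, with 1 library above 0. Slc6a9, the glycine transporter, had 4.38, 14.2 and 19.4 CPM in Gfap-high and 23.8, 26.7 and 31.7 CPM in Gfap-low astrocytes, with no overlap. Gabbr2, a subunit of the GABA-B receptor, was lower at -0.68, Kcnd2, a voltage-gated potassium channel, at -0.74, and Slc13a5, a citrate transporter, at -0.67.

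Of secreted proteins, Igfbp2, which binds insulin-like growth factors, had the lowest median of all. It had 10.9, 41.6 and 91.5 CPM in Gfap-high astrocytes and 68.6, 97.0 and 185 CPM in Gfap-low astrocytes, a median log2 ratio of -1.36. The libraries spread widely, from -1.98 in library 2 to -0.21 in library 5. Spon1, the matrix protein F-spondin, had 0, 4.75 and 11.2 CPM in Gfap-high and 17.0, 22.1 and 25.2 CPM in Gfap-low astrocytes, with no overlap, a median of -1.18. Nnat, a small membrane protein, had 28.5, 68.5 and 91.0 CPM in Gfap-high and 83.2, 122 and 263 CPM in Gfap-low astrocytes, a median of -0.99. Luzp2, Cables1, Inka2, Tnfaip8, Mpp6, Ppp1r14c and Ptprc completed the genes called lower, with medians from -0.83 to -0.59. Spon1 and Inka2 reached 10 CPM only through Gfap-low astrocytes, so their values are a description. Ptprc, the leukocyte protein CD45, was seen in 33.6% of thinned C1q barcodes. Tnfaip8 was seen in 10.4% of thinned C1q barcodes, against 4.02% of Gfap-high and 5.12% of Gfap-low cells.

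Other genes often used to grade reactive astrocytes did not pass the limits. Vim, the filament protein that accompanies Gfap in reactive astrocytes, had 0, 11.3 and 23.7 CPM in Gfap-high and 3.81, 8.43 and 14.7 CPM in Gfap-low astrocytes, a median of 0.11. Nes had 3.79 CPM in Gfap-high and 3.33 CPM in Gfap-low astrocytes over all libraries, below the level needed. C3, a complement component used as a mark of neurotoxic astrocytes, had a median of -0.27 and lay above 0 in 1 library. Lcn2 had 2.09 CPM in Gfap-high and 0.321 CPM in Gfap-low astrocytes over all libraries, with 43.2% of its Gfap-high UMIs from 1 cell. Serpina3n had 0 UMIs in the whole matrix.

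Of the 36 gene lists, 26 held no called gene. The lists of reactive genes had the highest medians among those plotted, with 1 call. Of 6 tested genes common to several kinds of reactive astrocyte, Cd44 was higher and none was lower, with a list median of 0.34 against 0.00 for all genes. Of 7 tested genes known from mouse astrocytes after lipopolysaccharide, none was called, with a median of 0.35. Here C4a, a complement component, had a median of 0.53 and was above 0 in all 6 libraries. Thinned, C4a was seen in 3.56% of Gfap-high cells, 1.31% of Gfap-low cells and 10.1% of C1q barcodes. The part of microglial RNA in the C4a value was not tested. None of the genes known from mouse ischaemia reached the level to be tested. Interferon-induced genes (15 tested) had a median of 0.21 and genes of major histocompatibility class I (8 tested) of 0.16, none called. Of the class I genes, 5 of 8 were above 0 in all 6 libraries, against 6.33% of all genes. Class II genes (3 tested) had a median of -0.19, none called.

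Of 26 tested genes of astrocyte identity none was called, with a median of -0.09 and 12 of 26 below 0 in all 6 libraries, against 6.46% of all genes. Glul, which makes glutamine, had a median log2 ratio of -0.13, Slc1a2, the main glutamate transporter, of 0.01 and Apoe, the lipid carrier, of -0.06. Gjb6, a second astrocyte connexin, had 308, 382 and 404 CPM in Gfap-high and 404, 473 and 512 CPM in Gfap-low astrocytes. It was lower in all 6 libraries by a small and even amount, from -0.38 to -0.25. Clu, the chaperone clusterin, was above 0 in all 6 libraries with a median of 0.25.

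Of 18 tested cholesterol genes none was called, with a median of -0.16 and 8 of 18 below 0 in all 6 libraries, against 6.46% of all genes. Of 36 ribosomal proteins none was called, with a median of 0.07 and 13 of 36 above 0 in all 6 libraries, against 6.33% of all genes. Cdkn1a, a p53 target that halts the cell cycle, had 0, 19.5 and 53.5 CPM in Gfap-high and 1.39, 17.1 and 47.3 CPM in Gfap-low astrocytes, a median of 0.09. None of 14 tested p53 targets was called.

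**Figure D3:**
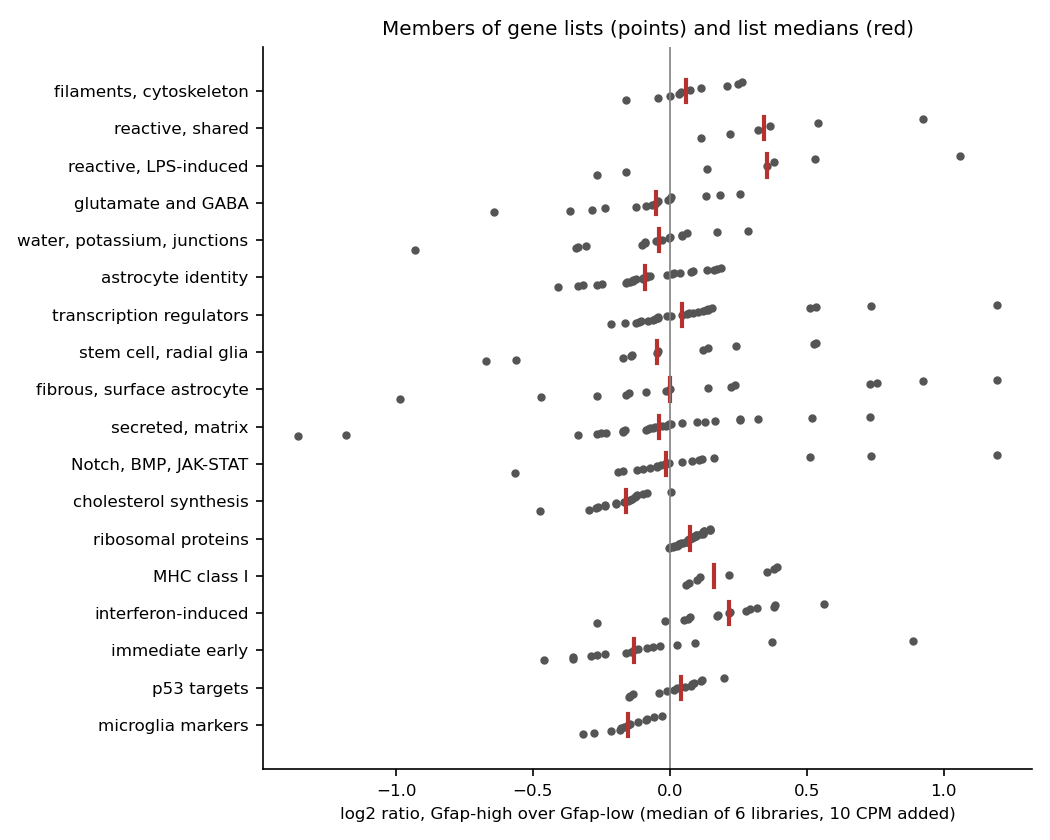
Log2 ratio of Gfap-high over Gfap-low astrocytes, as the median of 6 libraries with 10 CPM added, for the tested members of 18 gene lists (points), with the median of each list as a red line. The lists of shared and lipopolysaccharide-induced reactive genes have the highest medians, 0.34 and 0.35, and the list of cholesterol genes lies mostly below 0, with a median of -0.16.

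Hopx, a marker of radial stem cells that astrocytes also carry, had 106, 142 and 401 CPM in Gfap-high and 72.1, 99.6 and 241 CPM in Gfap-low astrocytes, a median of 0.53. It was above 0 in all 6 libraries and under the limit. Of 12 tested genes in the list of stem cell and radial glia markers, only Gli1 was called, lower. Gli1 reached 10 CPM only through Gfap-low astrocytes.

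Across bands of Gfap, the called genes moved at different points of the scale. Id3 climbed through every band, from 64.8 CPM below 0.5 Gfap per 1000 to 112 CPM at 1.5 to 2, 149 CPM at 2 to 2.5 and 280.3 CPM from 6. Gsn stayed between 15.4 and 26.2 CPM in the 4 bands below the limit, then reached 77.3 CPM at 4 to 6 and 252 CPM from 6. Cebpd had 58.7 CPM at 1.5 to 2 and 317 CPM from 6. Heyl and Gli1 changed mostly below the limit. Heyl had 142 CPM below 0.5 per 1000 and 70.4 CPM at 1.5 to 2, and then 59.3 CPM at 2 to 2.5 and 44.6 CPM from 6. Gli1 had 31.0 CPM below 0.5 per 1000, 7.78 CPM at 1.5 to 2 and 5.85 CPM from 6. The bands pool the libraries, whose parts differ between bands.

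**Figure D4:**
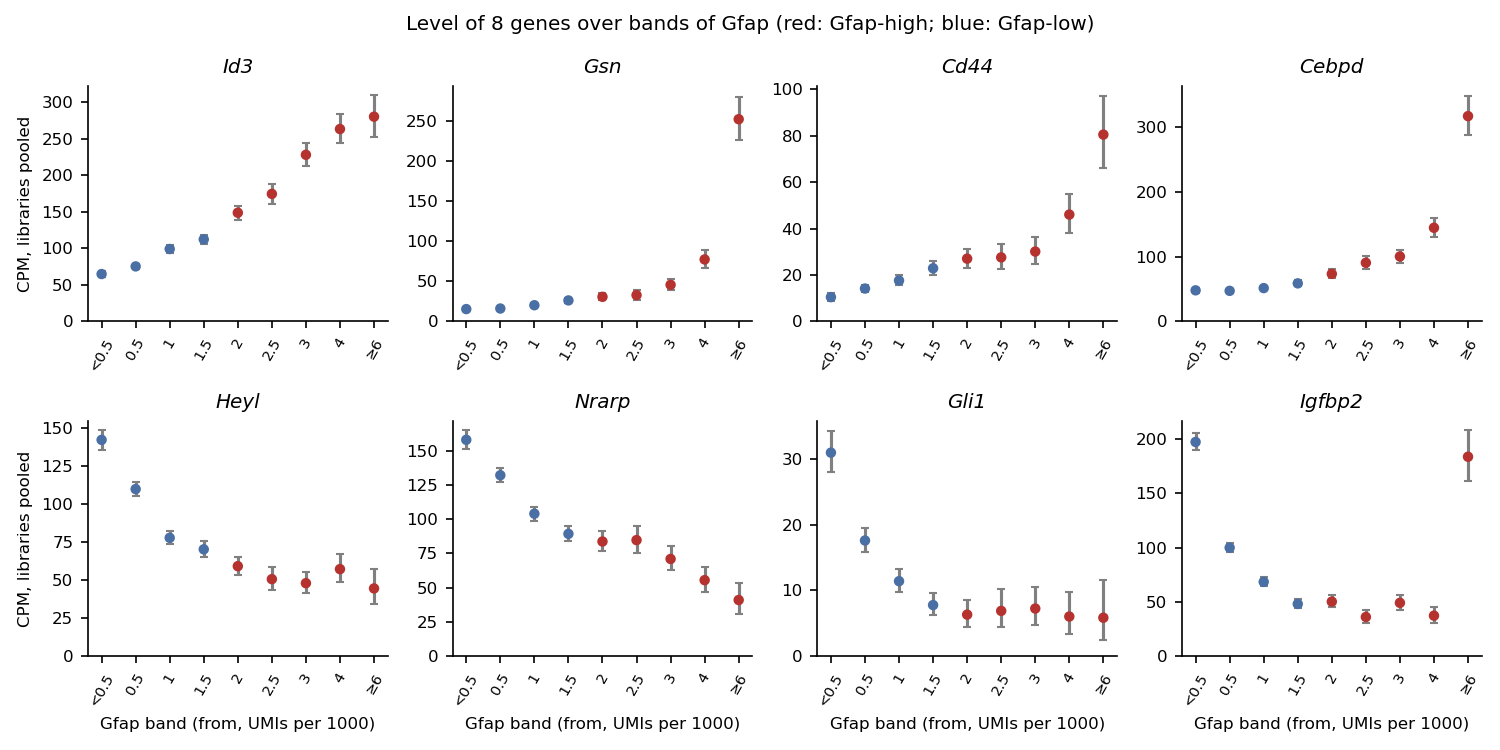
Level of 8 genes in CPM, libraries pooled, over 9 bands of Gfap in UMIs per 1000 (each tick is the lower edge of its band), for bands above the limit (red) and below it (blue), with 95% Poisson intervals that cover counting error only. Gsn and Cebpd are highest in the last band, at 252 and 317 CPM, while Heyl and Gli1 have most of their difference among the Gfap-low bands.

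Of the 22 genes called lower, 10 had a higher level from 6 per 1000, a band of 173 cells, than at 4 to 6. No share of all genes is given beside this count, so it is a description. Some of the 10 differed little, such as Olig1 at 17.4 and 17.6 CPM (4 to 6, then from 6) and Kcnd2 at 24.5 and 24.9 CPM. Igfbp2 had 197 CPM below 0.5 per 1000, 37.4 CPM at 4 to 6 and 184 CPM from 6, and 1 cell gave 16.6% of its UMIs from 4 per 1000 in libraries 4 to 6. Kcnj16 had 51.3 CPM (95% Poisson interval 43.1 to 60.7) at 4 to 6 and 76.8 CPM (62.9 to 93.0) from 6, and Mpp6 had 17.4 and 30.0 CPM, with intervals that overlap. Vim and Synm, a filament partner of Gfap, also stood highest in the last band, at 39.5 and 38.1 CPM, against 12.8 and 28.3 CPM at 4 to 6.

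The Gfap-high class was itself divided at 4 per 1000, a division made after values had been seen and possible in libraries 4, 5 and 6 only, where at least 50 cells lay on each side. It set 438 cells from 4 per 1000 against 1360 cells from 2 to 4. Of 8673 tested genes, 28 were higher (0.323%) and 1, Fosb, was lower (0.0115%) by 1.5-fold and the same side in the 3 libraries. Of these 28, 8 had also been called higher in Gfap-high astrocytes as a whole. All 20 genes called higher before had a median above 0 here, and 17 of the 22 called lower had one below 0. The median over all 8673 genes was -0.02, and the shares of all genes on each side of 0 are not given here. The cells from 4 per 1000 were part of the sums behind the earlier calls. The shared genes and sides are therefore a description and no support for those calls.

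The genes higher in the cells from 4 per 1000 included Gsn and Serping1. Gsn had 118, 162 and 124 CPM from 4 per 1000 in libraries 4, 5 and 6, against 32.6, 33.4 and 37.7 CPM from 2 to 4, a median log2 ratio of 1.58. Serping1 had 40.9, 103 and 64.0 CPM from 4 per 1000 against 21.0, 34.1 and 20.4 CPM from 2 to 4, a median of 1.28. Both were higher in all 3 libraries, as the call required. In the cells from 4 per 1000, 1 cell gave 15.2% of the Gsn UMIs and 1 cell gave 10.6% of the Serping1 UMIs.

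Sbno2, a gene induced through Stat3, had a median of 1.26 and Cebpd of 1.16. In Gfap-high over Gfap-low astrocytes, Sbno2 had a median of 0.44, was below 0 in libraries 1 and 3 (-0.30 and -0.05) and was not called. Signalling through Stat3 was not tested. From 4 per 1000 over 2 to 4, Cd44 had a median of 0.74 and C1s, a complement protease, of 0.64. Cxcl10, an interferon-induced chemokine, reached 58.8 CPM from 4 per 1000 in library 5, but 93.8% of its UMIs in the cells from 4 per 1000 came from 1 cell, and it was not called. Heyl had a median of -0.11 and Gli1 of -0.17, each with libraries on both sides of 0, and Nrarp had -0.48.

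Of the 28 genes higher from 4 per 1000, 3 reached 10 CPM only through those cells, so their values are a description. Socs3, the brake that Stat3 induces on cytokine signals, had 17.4, 25.5 and 34.0 CPM from 4 per 1000 in libraries 4, 5 and 6, against 5.25, 6.77 and 5.49 CPM from 2 to 4. Over all libraries and thinned, Socs3 was seen in 1.32% of Gfap-high cells, 0.737% of Gfap-low cells and 10.9% of C1q barcodes. The part of microglial RNA in the Socs3 value was not tested. Mgp, an inhibitor of calcification in the matrix, had 50.1, 14.7 and 37.0 CPM from 4 per 1000 against 7.99, 5.64 and 7.06 CPM from 2 to 4. Of the Mgp UMIs from 4 per 1000, 1 cell gave 11.9%. Cxcl12, a chemokine, had 25.7 CPM from 4 per 1000 against 7.48 CPM from 2 to 4 with the libraries pooled, and 1 cell gave 17.6% of its UMIs from 4 per 1000.

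**Figure D5:**
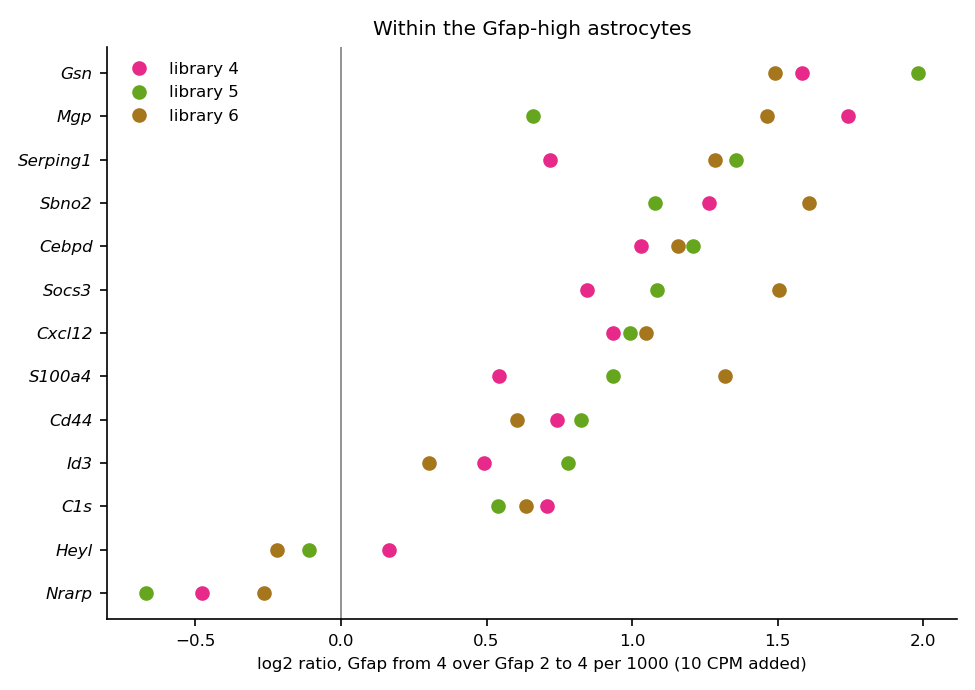
Log2 ratio of Gfap-high astrocytes from 4 per 1000 over those from 2 to 4 per 1000, with 10 CPM added, in libraries 4, 5 and 6 (points), for 13 genes, of which Mgp, Socs3 and Cxcl12 reached 10 CPM only through the cells from 4 per 1000. Gsn lies between 1.49 and 1.98, while Heyl lies on both sides of 0.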

How the data were processed

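Counts were deposited by the authors as one pooled matrix of whole UMI counts per gene and barcode, for 30452 genes, written by Cell Ranger 7.0.0 per the file headers. The submitters' processing notes name Cell Ranger and the mouse build mm10, while the gene identifiers in the matrix are those of rat. The annotation and the handling of intron reads were not stated in the material used.

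Barcodes were chosen by the rule in the report. Counts were summed per library and class and scaled to CPM. Genes of the rule (12) and of mitochondria (37) were left out of the calls. Doublets were not called, and free RNA was not removed. The members and the 36 gene lists (670 genes, 631 in the matrix) were chosen with earlier results of these data known. Genes named were the 12 highest and 12 lowest medians among those called, up to 4 of each list with the largest absolute median, and 16 set genes. The other genes, the bands of Gfap, the division at 4 per 1000 and the promoter motifs (3 of those tried are given) were chosen after values had been seen. Alternatives changed the limits, depth, scaling, added CPM and libraries. The scripts were tested on simulated data. The tools were pandas 2.3.3, SciPy 1.17.1 and NumPy 2.4.6 under Python 3.11.15, with matplotlib 3.10.9 for plots.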

Additional observations from a re-analysis of the deposited data

Results flagged for a closer look

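Of 83 series of 6 library values examined with Dixon's test, 6 had a library far from the others, and chance gives about 1 in 20. The log2 ratio of Nrarp, Gfap-high over Gfap-low, was -1.62 in library 1, and the nearest of the other libraries was at -0.78. The ratio of Cebpd was 0.0150 in library 1, with the nearest at 0.73. The ratio of Gabbr2 was -1.46 in library 1, with the nearest at -0.80. Library 1 held only 64 Gfap-high astrocytes. In library 3, A2m, a protease inhibitor, stood at 1.15 with the nearest at 0.56, Stac2 at 1.02 with the nearest at 0.66, and Glul at -0.43 with the nearest at -0.13. Library 3 was the shallowest. Whether depth or cell number plays a part in these values was not tested.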

How the results depend on the processing

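None of the 42 called genes changed sign under the alternatives run, but for some alternatives a change was not possible. A called gene had the same sign in every library, so its median keeps that sign when a library is left out. Changing the added CPM cannot change the sign of a ratio either. For those alternatives the kept signs are no support for the calls. The Gfap-high share was 56.1% at a limit of 1 per 1000, 5.51% at 4 and 33.3% with cells thinned to 1500 UMIs, and 21.5 to 24.9% without each library in turn. The 20 higher and 22 lower genes became 62 and 41 with Gfap-high from 4 per 1000 (3 libraries, since the others had under 50 such cells), 38 and 34 with Gfap-low below 1, and 13 and 12 with thinned cells. They became 34 and 46 with 1 CPM added, 2 and 4 with 50 CPM added, 6 and 10 at a level of 50 CPM and 4 and 3 at 2-fold. At a mitochondrial limit of 10%, which kept 681 Gfap-high cells in all and 3 libraries for the ratios, 22 genes were higher and 10 lower, and 12 of the higher and 9 of the lower genes were the same as before. Without each library in turn, 20 to 27 were higher and 18 to 28 lower. Without 1 library, the median of 3 of the 20 higher genes (C1r, Igsf21 and Tnfaip6) and 5 of the 22 lower genes (Kcnd2, Tnfaip8, Etv4, Ppp1r14c and Ptprc) came under 1.5-fold. Leaving out barcodes shared between libraries, chosen after seeing the data, gave 18 higher and 22 lower. Of 3059 values of 161 named genes, 2772 stayed within the spread between libraries and 287 moved beyond it. Each ratio of Gfap-high over Gfap-low already sets the classes of one library against each other. No paired analysis was possible because no library could be tied to a labelled sample, so irradiated and control rats could not be matched. The cause of these shifts was not tested.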

Other observations

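Libraries 1 to 3 and libraries 4 to 6 fall into separate sets for some values, and no library is tied to a labelled rat. The sets and the genes given were chosen after values had been seen. The share of all genes that separate this way is not given, so these values are a description. Nnat had log2 ratios, Gfap-high over Gfap-low, of -1.28, -1.25 and -1.92 in libraries 1, 2 and 3, and of -0.72, -0.62 and -0.41 in libraries 4, 5 and 6. Igfbp2 had -1.91, -1.98 and -1.76 in libraries 1 to 3, and -0.93, -0.21 and -0.95 in libraries 4 to 6. Not every called gene separated. Etv5 had -0.46, -0.68 and -0.77 in libraries 1 to 3, and -0.61, -0.37 and -0.65 in libraries 4 to 6. Gfap-low astrocytes also held less Gfap in libraries 1 to 3, with medians of 0.678, 0.739 and 0.549 per 1000 UMIs, than in libraries 4 to 6, with 0.943, 0.990 and 1.01. Gfap-high medians were alike, from 2.75 to 2.93 per 1000, but the limit of 2 per 1000 bounds them from below.

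Single cells carried much of some low genes. S100a9, a neutrophil protein, had 75.8% of its UMIs in Gfap-high astrocytes from 1 cell, Cxcl10 65.9% and Timp1, a protease inhibitor of the matrix, 24.2%.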
